A study of Sus scrofa with 24 samples.

Results

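The 3 myocyte enhancer factor 2 genes MEF2A, MEF2C and MEF2D and the 4 class IIa histone deacetylase genes HDAC4, HDAC5, HDAC7 and HDAC9 were followed in a back muscle, the longissimus dorsi (LDM), of 24 pig fetuses. They were taken by gene symbol from the annotation of the array and held 22 of its 47845 probe sets. A probe set passed a filter on dim signal when it was brighter than its array's median probe set in at least 20 of the 24 arrays. By this filter 18 of the 22 probe sets and 6 of the 7 genes were kept, of 9710 genes kept in all. MEF2C was the gene without a kept probe set.

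The fetuses were F2 animals at 63 dpc (days post conception) from a cross founded on the German Landrace and Pietrain breeds, and each had 1 Affymetrix Porcine Snowball array. The labels name no treatment. The study compared fetuses of low and high weight, but the deposited labels put no fetus in a weight group, so all 24 stayed unassigned and no comparison of weight groups was made. The paper itself gives weight group, sex and dam for each fetus number; that listing was not used, since groups were taken from the deposited labels alone. The fetuses came from several dams and a single sire, so they were not fully independent, and p-values measured only the spread over these 24 animals.

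MEF2 proteins are transcription factors of the MADS box family that bind an A/T-rich DNA element in the control regions of muscle genes and act together with myogenic factors such as MYOD1. Class IIa deacetylases bind MEF2 proteins and repress their target genes. Kinases such as those of the CaMK, protein kinase D, SIK and AMPK families phosphorylate the deacetylases, which are then held by 14-3-3 proteins and exported from the nucleus. This switch acts on proteins and their location, neither of which an RNA array measures.

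The deposited values were log2 signals normalized by the robust multichip average (RMA). Array medians lay between 6.61 and 6.73, no 2 arrays were identical, and arrays correlated with one another at a median r of 0.946 (fetus 338) to 0.980 (fetus 363). The first principal component of the 9710 genes carried 39.7% of their variance. Its Pearson's r over the 24 fetuses with the signal of background controls was 0.767; these are probe sets of no transcript, here those with at least 13 G or C bases. Their mean signal was lowest in fetus 338 (7.30) and highest in fetus 313 (7.94). The mean log2 signal of the 6 measured markers of muscle fibres lay between 12.61 and 12.91, and these genes code for abundant muscle proteins. The other 2 listed markers, MYH3 and MYH8, had no probe set under their symbols here. The tissue was measured in bulk, where fewer cells of a type and less RNA per cell cannot be told apart.

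Among the MEF2 factors, MEF2A varied most between fetuses. The brightest of its 7 probe sets ran from 9.74 in fetus 283 through a median of 10.36 to 10.96 in fetus 311. Fetuses 340 (9.84) and 281 (9.86) were next lowest, and 338 (10.78) and 320 (10.67) next highest. The span, the 90th minus the 10th percentile over fetuses, was 0.79 on the log2 scale, or 1.73-fold. The median span of a kept gene was 0.42, and 92.9% of the kept genes had a smaller span than MEF2A. A dimmer MEF2A probe set, number 47716, had a span of 2.08-fold, from 7.76 in fetus 313 to 9.23 in fetus 338.

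MEF2D, which shares the DNA-binding domain of MEF2A and is broadly expressed, varied less. Its brightest probe set ran from 10.42 in fetus 376 through a median of 10.75 to 10.94 in fetus 303, a span of 0.37 or 1.29-fold, and 33.0% of kept genes had a smaller one. Fetuses 376 and 338 (10.49) lay at its low end. MEF2C, a factor with a known role in muscle and heart development, was read by a single dim probe set that lay above the array median in 0 of 24 fetuses. It ran from 4.91 in fetus 340 through 5.37 to 5.62 in fetus 360. A low signal from 1 probe set does not show that the transcript was absent.

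The deacetylases fell into narrow and wider ranges. HDAC5, a deacetylase exported from the nucleus under CaMK and protein kinase D signalling, ran from 9.002 in fetus 376 through 9.26 to 9.49 in fetus 272. Its span was 0.25, or 1.19-fold, and 3.48% of kept genes had a smaller span. HDAC7, known for its part in endothelium and thymocytes, was as narrow, with 8.38 in fetus 338, a median of 8.58 and 8.84 in fetus 384. Its span was 0.23, or 1.18-fold.

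HDAC4, which in mouse muscle is known to respond to denervation, ran from 7.59 in fetus 297 through 7.90 to 8.29 in fetus 312, a span of 0.45 or 1.36-fold. HDAC9, whose shorter isoform MITR lacks the deacetylase domain, ran from 6.92 in fetus 303 through 7.34 to 7.66 in fetus 352. Its span was 0.59, or 1.504-fold, and 81.0% of kept genes had a smaller one. The array does not tell the HDAC9 isoforms apart here.

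A span of at least 1.5-fold was reached by MEF2A, MEF2C and HDAC9, 3 of the 7 genes, against 19.4% of the 9710 kept genes. MEF2C did not pass the filter, so its span lies in the range of dim signal. The brightest class of background controls, with 24 G or C bases, had a median of 9.71. Among the 7 genes, MEF2A and MEF2D had a brightest probe set with a median above it. Signals of the other 5 genes can hold a larger unspecific part, but its size was not measured. Controls with fewer G or C bases were dimmer, with a median of 3.37 at 12 bases. The base content of the members' own probes was not looked up.

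**Figure D1:**
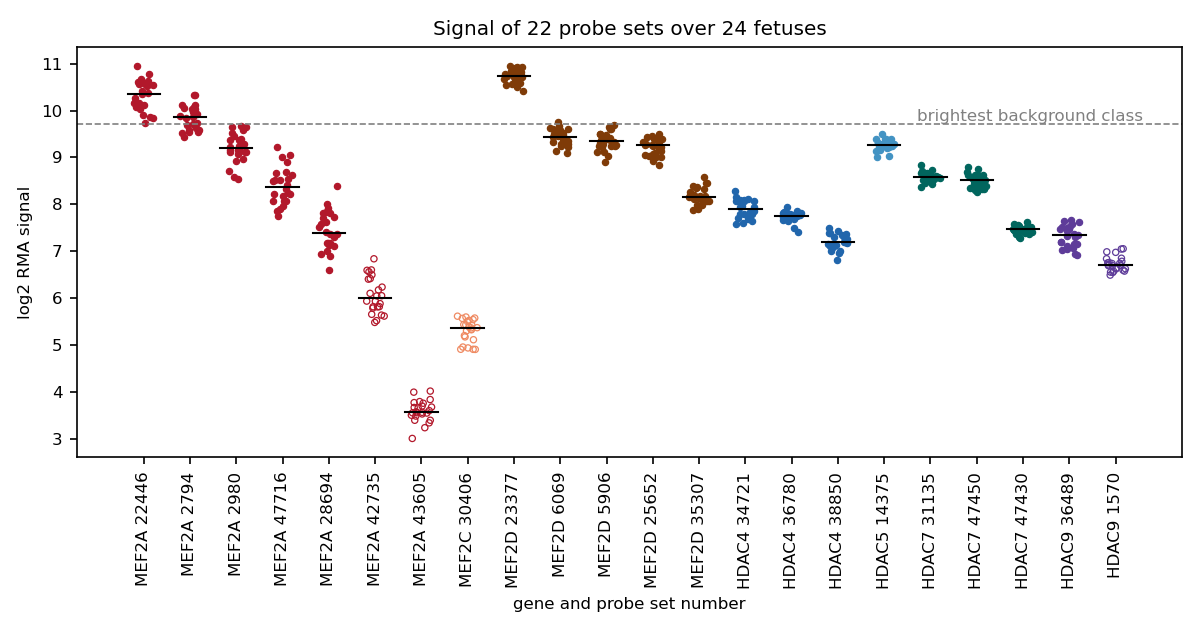
Log2 RMA signal (vertical axis) of the 22 probe sets of the 7 genes (horizontal axis, gene and probe set number) in 24 fetuses. Each point is a fetus, black bars are medians, open points mark the 4 probe sets below the filter, and the dashed line is the median of the brightest background control class, 9.71. The MEF2A probe sets spread more widely than those of HDAC5 and HDAC7.

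Probe sets of 1 gene share its transcripts and are not replicates, but they show how far a reading depends on the probes. The 5 kept MEF2A probe sets moved together over the fetuses, with Pearson's r from 0.705 to 0.884 over their 10 pairs. The dimmest MEF2A probe set, at a median of 3.57, did not follow them, and the lowest r over all 21 pairs was 0.011. The 5 MEF2D probe sets also moved together, with r from 0.408 to 0.801. Agreement was lower for HDAC7, with r from 0.287 to 0.545 over 3 pairs, and for HDAC4, with r from 0.024 to 0.454. The HDAC4 probe set number 38850 went against the other 2 in its relation with HDAC5, given with the pair of HDAC4 and HDAC5. The pair of HDAC9 probe sets had r = 0.365, and HDAC5 and MEF2C had 1 probe set each.

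**Figure D2:**
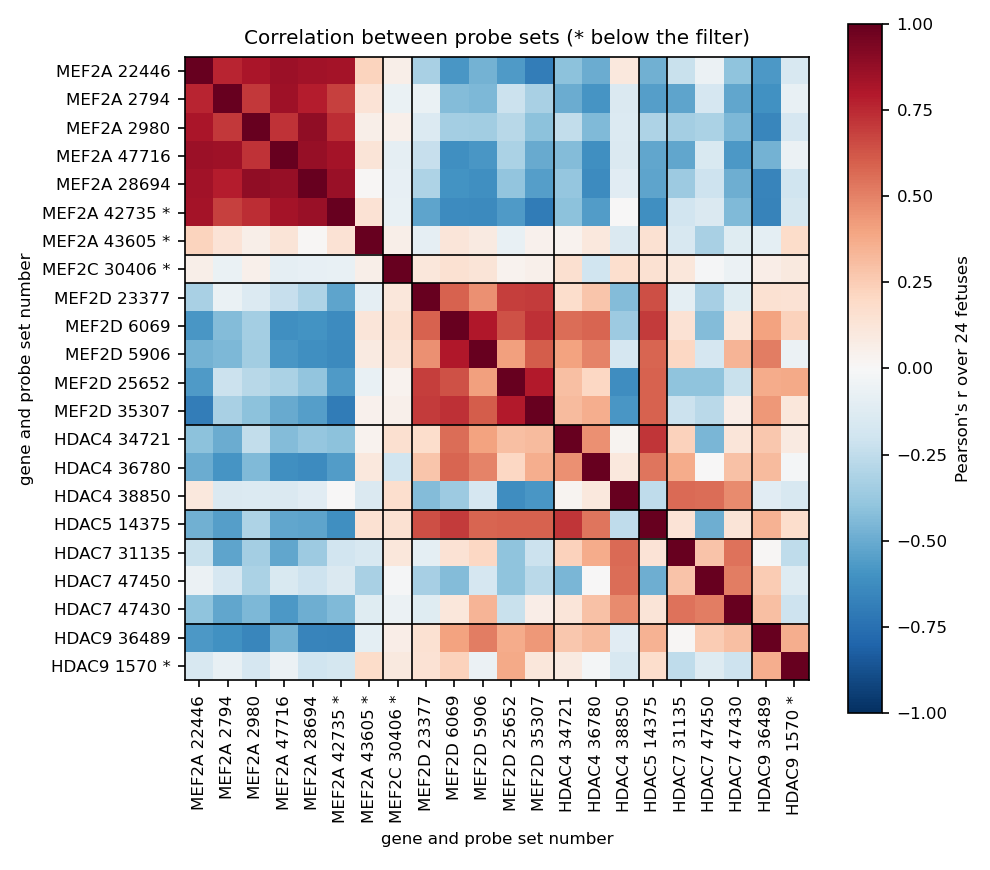
Pearson's r over 24 fetuses between all 22 probe sets, ordered by gene on both axes, with black lines between genes and * on the 4 probe sets below the filter. Red blocks mark the MEF2A and the MEF2D probe sets, and the field between them is mostly blue, with 32 of 35 values of MEF2A with MEF2D negative, the 25 between kept probe sets among them.

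Relations among the members were then taken over the 24 fetuses on the brightest probe set of each gene. Of 21 pairs, the 15 without MEF2C were tested. A pair was called when the limma regression of all kept genes on each of its genes gave the other an adjusted p under 0.05 (Benjamini-Hochberg over all genes). By this rule 1 of the 15 pairs, MEF2A with HDAC9, was called, and 1 to 3 pairs were called when 1 fetus at a time was left out (3 without 340).

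HDAC9 was lower where MEF2A was higher, at r = -0.573 (permutation p = 0.00383, 100000 permutations, 2-sided) and Spearman's rho = -0.613 (permutation p = 0.0017). The adjusted p was 0.00546 with MEF2A and 0.0122 with HDAC9 as the predictor. Fetus 283 had the lowest MEF2A and the second highest HDAC9 (7.65), and fetus 303, the lowest in HDAC9, had a MEF2A signal near the median. Without fetuses 283 and 311, the farthest from the MEF2A median, r was -0.636. All 5 kept MEF2A probe sets had a negative r with the kept HDAC9 probe set, from -0.662 to -0.476. The other HDAC9 probe set, number 1570, was dimmer and did not pass the filter. Its r with the same MEF2A probe sets was weaker, from -0.201 to -0.0623, so the relation depended on the HDAC9 probe set. Limma called 20.4% of kept genes positive and 29.3% negative with MEF2A, and 8.58% positive and 15.6% negative with HDAC9, so HDAC9 was 1 of many genes that ran against MEF2A. Both genes also moved with the background controls, and with the control signal as a covariate the partial r was -0.38 with an adjusted p of 0.336.

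The closest relation in size joined the deacetylases HDAC4 and HDAC5. They rose and fell together at r = 0.714 (permutation p = 4e-05) and rho = 0.806 (permutation p = 1e-05, the smallest that 100000 permutations can give). Without fetuses 297 and 312 r was 0.798. The limma adjusted p was 0.0013 with HDAC5 as predictor but 0.0709 with HDAC4, so the pair was not called. It also depended on the probe set, because r with HDAC5 over the 3 HDAC4 probe sets ran from -0.253 to 0.714.

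MEF2D and HDAC5 had r = 0.642 (permutation p = 0.00063) and rho = 0.460 (permutation p = 0.0251). Adjusted p was 0.00777 with HDAC5 and 0.0617 with MEF2D as predictor, so this pair too was not called. Fetuses 338 and 376 were the 2 lowest in both genes, and without them r was 0.397, so much of the relation rested on them. All 5 MEF2D probe sets had a positive r with HDAC5, from 0.580 to 0.699.

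MEF2A ran opposite to HDAC5, at r = -0.479 (permutation p = 0.0167, rho = -0.464 with permutation p = 0.0231), with adjusted p of 0.0654 and 0.0317. With HDAC4 the r of MEF2A was -0.413 (permutation p = 0.0453, rho = -0.404 with permutation p = 0.0515). With MEF2D it was -0.323 (permutation p = 0.124, rho = -0.306 with permutation p = 0.146) and was not called, although all 25 pairs of kept MEF2A and MEF2D probe sets were negative, from -0.690 to -0.0700 with a median of -0.409. When each gene was taken as the mean of its kept probe sets, r of MEF2A with MEF2D was -0.56 with a limma adjusted p of 0.0102.

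The other 9 tested pairs were not called, with r from -0.226 for MEF2A with HDAC7 to 0.351 for HDAC5 with HDAC9. HDAC7 and HDAC9 had r = 0.00985. The 6 pairs with MEF2C had r from 0.0596 to 0.160.

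**Figure D3:**
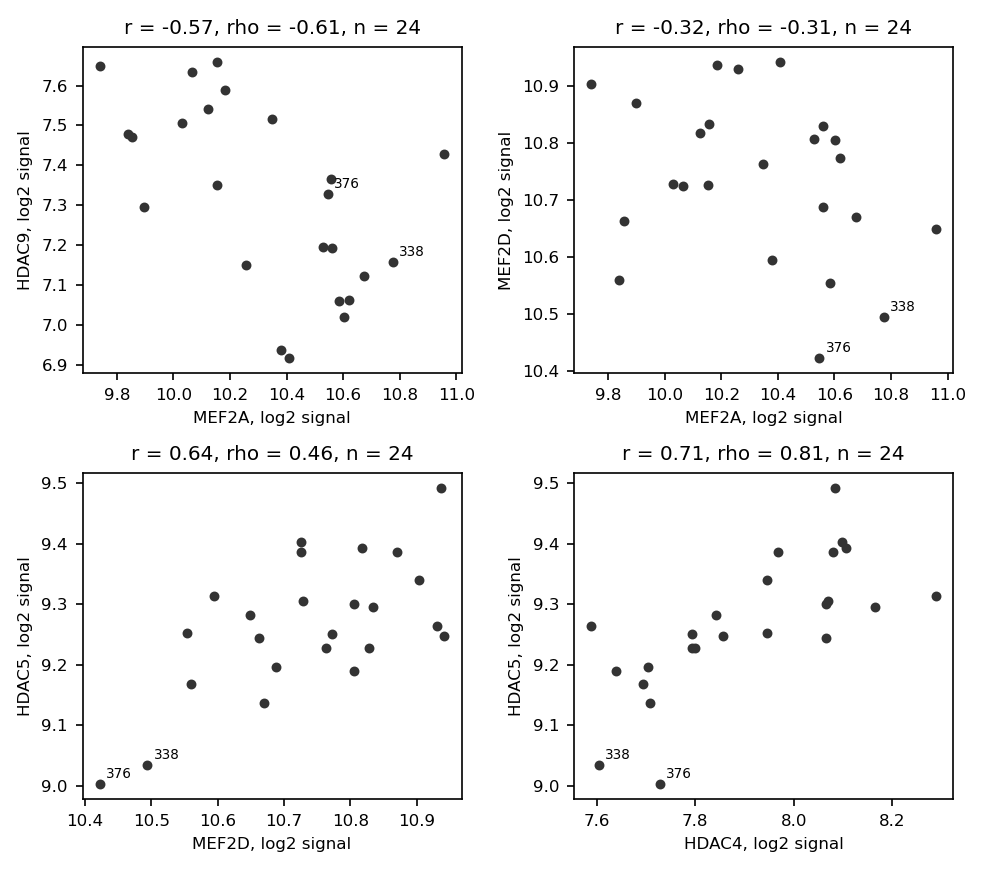
Log2 signal of 4 pairs of genes, MEF2A with HDAC9, MEF2A with MEF2D, MEF2D with HDAC5 and HDAC4 with HDAC5, on the brightest probe set of each. Each point is 1 of 24 fetuses, with Pearson's r and Spearman's rho above each panel. Fetuses 338 and 376 are marked and lie at the low end of MEF2D and HDAC5.

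Background control signal moved with 3 of the 6 kept members in the fit across all genes, in which 20.8% of kept genes were called positive and 22.7% negative. MEF2A was lower where the controls were brighter, at r = -0.528 (permutation p = 0.0078, rho = -0.558 with permutation p = 0.00526), with a limma adjusted p of 0.0126. HDAC7 was higher, at r = 0.632 (permutation p = 0.00107, rho = 0.547 with permutation p = 0.00668) and an adjusted p of 0.0205. HDAC9 was higher too, at r = 0.596 (permutation p = 0.00219, rho = 0.639 with permutation p = 0.00105) and an adjusted p of 0.00539. Without fetuses 313 and 338, those farthest from the median of the control signal, the 3 values of r were -0.446, 0.449 and 0.557. MEF2D (r = 0.043), HDAC4 (r = 0.269) and HDAC5 (r = 0.313) were not called. With the control signal regressed out, the spans were 0.72 for MEF2A, 0.46 for HDAC9 and 0.17 for HDAC7, in place of 0.79, 0.59 and 0.23. Spans of at least 1.5-fold then remained for 2 members, MEF2A and MEF2C. The calls also depended on the controls chosen. With controls of fewer than 13 G or C bases, MEF2A kept its call (r = -0.522, permutation p = 0.0084, rho = -0.477 with permutation p = 0.0195, limma adjusted p = 0.0339). HDAC7 (r = 0.143, adjusted p = 0.700) and HDAC9 (r = 0.208, adjusted p = 0.446) lost theirs in limma. MEF2D (r = 0.497, adjusted p = 0.0745) and HDAC5 (r = 0.538, adjusted p = 0.0744) were not called, although their r was higher than with the other controls.

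On the first component, given as a description because the component was built from the same values, MEF2A had r = -0.896. HDAC9 had r = 0.664, HDAC5 0.605, HDAC4 0.420, MEF2D 0.388, HDAC7 0.363 and MEF2C 0.023. MEF2A thus lay close to the main axis of these arrays, at the end where 338, 320 and 311 stood. The paper chose its fetuses as sib pairs that differed strongly in weight, and all correlations here pool them. How weight group, sex or dam goes with this axis was not tested.

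**Figure D4:**
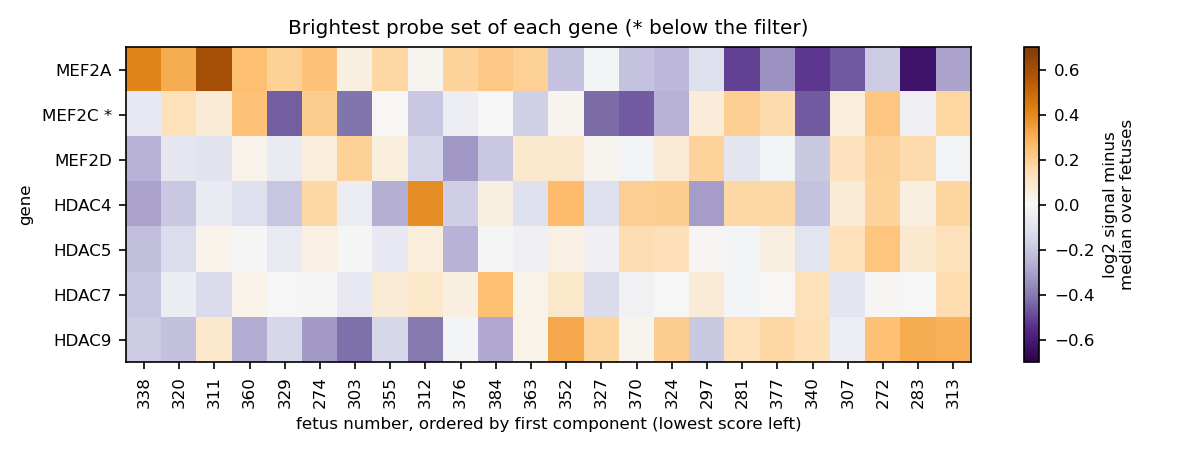
Log2 signal of the brightest probe set of each gene (rows) minus its median over fetuses, in 24 fetuses (columns) ordered by the first component, lowest score at the left. MEF2A goes from high (orange) at the left to low (purple) at the right, HDAC9 runs mostly the other way, and HDAC5 and HDAC7 stay pale. MEF2C (*) did not pass the filter.

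The number of genes that followed a member differed widely. With MEF2A as predictor, limma called 1985 genes positive and 2847 negative of 9709. With HDAC5 it called 2615 positive (26.9%) and 889 negative (9.16%), and with HDAC9 833 and 1516. On arrays centred on their median the HDAC5 split was 3367 positive and 347 negative, or 90.7% positive in place of 74.6%. MEF2D gave 383 positive (3.94%) and 19 negative (0.196%). HDAC7 gave 11 positive (0.113%) and 90 negative (0.927%), and HDAC4 gave 7 positive (0.0721%) and 0 negative. For HDAC4, 2463 genes had an unadjusted p under 0.05. On ranks, no gene was called for MEF2D, HDAC4 or HDAC7. Leaving out 1 fetus at a time gave 0 to 860 genes for MEF2D (860 without 340), 0 to 860 for HDAC4 (860 without 312), 10 to 270 for HDAC7 (10 without 313) and 1482 to 3005 for HDAC9 (1482 without 313). With the first component as a covariate 0 genes were called for MEF2A and for HDAC9. With MEF2C limma called 0% of genes in either direction, at 150 genes with an unadjusted p under 0.05 and none on ranks.

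The genes most like MEF2A over the 24 fetuses were FILIP1 (r = 0.951), which codes for a filamin-interacting protein, and ATAD1 (0.946), an ATPase of the outer mitochondrial membrane. RTF1 (0.937), a factor of transcription elongation, CMYA5 (0.932), which codes for the muscle protein myospryn, and the chromatin gene ZZZ3 (0.930) came next. The most opposite were GAA (-0.912), the lysosomal glycogen-degrading glucosidase, the glutamine transporter SLC1A5 (-0.900) and IGFBP4 (-0.878), a binding protein of insulin-like growth factors. Adjusted p of these 8 genes in limma ran up to 1.83e-06, for IGFBP4.

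HDAC5 was most like TMEM115 (r = 0.944), a Golgi membrane protein, ZMYND8 (0.916), a chromatin reader, the calcium pump ATP2B4 (0.909), the SNARE STX8 (0.909) and SDHA (0.898), a subunit of succinate dehydrogenase. Most opposite were a probe set annotated to the microRNA gene MIR365-1 (-0.764), SSB (-0.741), which codes for the RNA-binding La protein, and RSBN1L (-0.729). HDAC9 was most like IRF8 (0.772), a transcription factor of myeloid cells, LETM1 (0.769), DDX54 (0.762), ZSWIM1 (0.751) and TRABD (0.742). It was most opposite to ZFYVE9 (-0.826), an adaptor of TGF-beta receptor signalling, the growth factor gene PDGFD (-0.813) and RUNX1T1 (-0.807). All 16 genes passed the limma test.

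MEF2D was most like GBA2 (r = 0.784), a glucosylceramidase, SH2B1 (0.777), FXR2 (0.776), WFS1 (0.765) and AHDC1 (0.763), and most opposite to AURKAIP1 (-0.730), CIDE-B (-0.680) and GNLY (-0.644). HDAC7 was most like INO80E (0.794), a subunit of the INO80 chromatin remodeller, TTBK1 (0.713), SCO2 (0.706), SNX18 (0.702) and MRPS2 (0.696). TTBK1 did not pass the test (adjusted p = 0.0593 in limma). HDAC7 was most opposite to the ubiquitin ligase gene SIAH1 (-0.809), TFG (-0.796) and DTNA (-0.790), which codes for a dystrobrevin of the dystrophin complex.

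HDAC4 was most like SLC37A1 (0.809), ANO10 (0.782), RBM22 (0.782), C1R (0.755) and TBCC (0.754), of which RBM22 and TBCC did not pass. The 3 genes most opposite to HDAC4, CGREF1 (-0.618), AHR (-0.615) and PAEP (-0.614), did not pass either. None of the 8 genes nearest to or farthest from MEF2C passed, with r between -0.658 for BRI3BP and 0.523 for CCDC17. Spearman's rho differed from r by a median of 0.0256 and at most 0.192 over the 56 genes named for likeness.

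Upstream of the deacetylases, 14 of 17 kinase genes had a named probe set and 13 were kept. With MEF2A 4 were called positive and 4 negative, against 20.4% and 29.3% of all genes. The positive ones were PRKD3 (r = 0.855), a protein kinase D, CAMK2D (0.848), and the AMPK catalytic subunits PRKAA1 (0.831) and PRKAA2 (0.511). The negative ones were CAMK2G (-0.675), SIK1 (-0.520), CAMK2B (-0.440) and CAMK1D (-0.433). Kinases of the same family, such as CAMK2D and CAMK2G, thus lay at opposite ends. With HDAC5, itself a substrate, 3 kinases (23.1%) were called positive and 3 negative, against 26.9% and 9.16% of all genes, among them CAMK1 (0.770, adjusted p = 0.00137 in limma) and PRKD3 (-0.615, adjusted p = 0.0041). With HDAC9 the r of PRKD3 was -0.718 and of SIK1 0.532, and with HDAC7 the r of PRKAA2 was -0.735, the single kinase called there. That HDAC7 call made up 7.69% of the kept kinases, against 0.927% of all genes called negative. No kinase was called with HDAC4, whose fit called 0.0721% of all genes.

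Of the 14-3-3 genes, 6 of 7 passed the filter, and 0 were called with any of the 7 members in limma. Over all genes the fits called 20.4% positive and 29.3% negative with MEF2A, 26.9% and 9.16% with HDAC5, and 8.58% and 15.6% with HDAC9. With MEF2D the shares were 3.94% and 0.196%, with HDAC7 0.113% and 0.927%, with HDAC4 0.0721% and 0%, and with MEF2C 0% in either direction. YWHAZ and YWHAB had r = 0.448 each with MEF2A, at adjusted p of 0.0549 and 0.115. At the other end were YWHAG (-0.369), YWHAH (-0.224) and YWHAE (-0.175).

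Corepressors and other binding partners of class IIa deacetylases were measured by 8 of 12 genes. With MEF2A 0 were called positive and 2 negative, RFXANK (r = -0.677) and GPS2 (-0.588), a subunit of the NCoR complex. The negative share was 25% of the 8 genes, near the 29.3% of all genes. With HDAC5 3 of 8 (37.5%, against 26.9% of all genes) were called positive, TBL1X (0.631), GPS2 (0.721) and RFXANK (0.548), and 0 negative. NCOR1, the scaffold through which HDAC4 and HDAC5 contact the catalytically active HDAC3, had r of 0.149 with HDAC4 and 0.259 with HDAC5 and was not called. TBL1X was called with MEF2D (0.724), and SUV39H1, a histone methyltransferase, with HDAC9 (0.619). Each was the single call there, 12.5% of the 8 genes. Over all genes 3.94% were called positive with MEF2D and 8.58% with HDAC9.

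Other histone deacetylases were measured by 5 of 7 genes, and HDAC8 did not pass the filter and HDAC3 had no probe set under its symbol here. HDAC2, a class I enzyme, followed MEF2A (r = 0.854, adjusted p = 1.9e-07 in limma) with its lowest signal in fetus 313 (8.27) and its highest in fetus 338 (9.53). HDAC11 (-0.776) and HDAC6 (-0.544) ran against MEF2A. Over all genes 20.4% were called positive and 29.3% negative with MEF2A. With HDAC5 the order was turned, with HDAC6 at 0.649, HDAC11 at 0.505 and HDAC2 at -0.579, all 3 called. These calls were 40% positive and 20% negative, against 26.9% and 9.16% of all genes. HDAC2 was called negative with HDAC9 (-0.608), the single call there (20%, against 15.6% of all genes). SRF, the other MADS box factor measured, had r = -0.652 with MEF2A and 0.676 with HDAC9, both called.

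Partners and activators of MEF2 were kept in 12 of 16 cases, and 14 had a named probe set. With MEF2A 3 were called positive, the calcineurin subunit PPP3CA (r = 0.828), the coactivator NCOA2 (0.811) and the myogenic factor MYF6 (0.441). These are 25% of the 12 genes, against 20.4% of all genes. PPP3CA spanned 1.47 on the log2 scale, from 7.65 in fetus 283 to 9.72 in fetus 320. Negative were 5 genes (41.7%, against 29.3%), CARM1 (-0.754), an arginine methyltransferase and coactivator, the acetyltransferase CREBBP (-0.563), MYOD1 (-0.539), MAPK7 (-0.510) and VGLL2 (-0.508). With HDAC5, 5 partners (41.7%, against 26.9% of all genes) were called positive, the highest being CREBBP (0.831) and CARM1 (0.801), and 2 (16.7%, against 9.16%) negative, PPP3CA (-0.600) and NCOA2 (-0.443). With MEF2D, whose fit called 3.94% of all genes positive and 0.196% negative, no partner was called. There CREBBP had r = 0.584 and CARM1 0.579 (adjusted p = 0.0709 and 0.054 in limma). With HDAC9 4 partners (33.3%, against 15.6% of all genes) were called negative and 0 positive (against 8.58%). The negative ones were NCOA2 (-0.715), the acetyltransferase EP300 (-0.674), PPP3CA (-0.610) and MYF6 (-0.563).

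Muscle genes known as MEF2 targets were kept in 23 of 29 cases, and 25 had a named probe set. With MEF2A, 4 of 23 (17.4%) were called positive and 7 (30.4%) negative, close to the 20.4% and 29.3% of all kept genes, so these genes as a group did not stand apart from the rest. LMOD3 (r = 0.908), an actin filament nucleator, XIRP2 (0.815), MYOZ2 (0.719) and MYOM1 (0.589) were the positive ones. NR4A1 (-0.634), XIRP1 (-0.623) and DES (-0.592), which codes for desmin, were the lowest of the negative ones. The related Xin repeat genes XIRP1 and XIRP2 therefore ran in opposite directions.

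With HDAC5, 8 of 23 targets (34.8%) were called positive and 2 (8.70%) negative, beside 26.9% and 9.16% of all kept genes. ENO3 (0.810), the muscle enolase, XIRP1 (0.744), PGAM2 (0.712), the muscle phosphoglycerate mutase, and MYOM2 (0.679) were the highest, and XIRP2 (-0.647) and LMOD3 (-0.444) the negative ones. With MEF2D 3 were called positive (13%, against 3.94% of all kept genes), ENO3 (0.695), XIRP1 (0.691) and PGAM2 (0.674), and 0 negative (against 0.196%). With HDAC9 4 were called positive and 2 negative, or 17.4% and 8.7%, against 8.58% and 15.6% of all kept genes. With HDAC4 and HDAC7 no target was called, and their fits called under 1% of all genes in either direction.

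Of all 68 pathway genes kept, 44 had a negative r with MEF2A and a positive r with HDAC5, 16 the reverse, and 8 the same sign with both. Over 9708 kept genes the first pattern held for 51.8% and the reverse for 28.3%, so opposed signs were frequent over all genes too, beside 64.7% and 23.5% of the pathway genes. Both predictors were read on the same 24 arrays, so these are values side by side and not separate evidence.

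**Figure D5:**
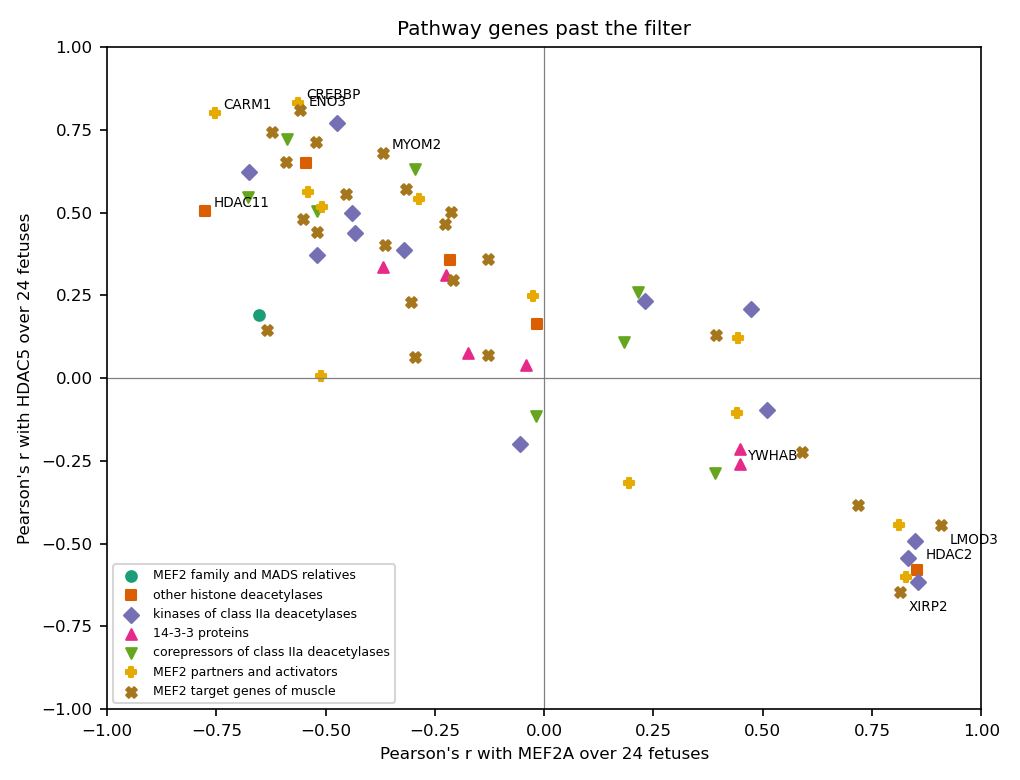
Pearson's r over 24 fetuses with MEF2A (horizontal axis) and with HDAC5 (vertical axis) for the 68 pathway genes past the filter, marked by list. Most genes lie in the upper left or lower right, with CARM1, CREBBP and ENO3 at one end and LMOD3, HDAC2 and XIRP2 at the other.

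Markers of other cell types moved with some members, at counts to be read beside the shares over all genes given above (20.4% positive and 29.3% negative with MEF2A, 26.9% and 9.16% with HDAC5, 8.58% and 15.6% with HDAC9, 0.113% and 0.927% with HDAC7). Of 3 measured genes of satellite cells and myoblasts, 2 were called negative with MEF2A and 2 positive with HDAC5 (MYOD1 and CDH15 in both cases). The third, PAX7, was called with neither (r = 0.064 with MEF2A and 0.345 with HDAC5). The mean signal of the 3 genes lay between 8.87 (fetus 320) and 9.38 (fetus 283). MYF5 did not pass the filter. Of 3 measured nerve and Schwann cell markers 1 was called with MEF2A, the neurotrophin receptor gene NGFR (r = -0.757, adjusted p = 3.68e-05 in limma), which was also called positive with HDAC9 (0.522). Their mean lay between 7.80 (fetus 355) and 8.23 (fetus 313).

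Of 7 measured endothelial markers, 2 were called positive and 3 negative with MEF2A, 2 positive with HDAC5 and 0 with HDAC7. With HDAC9 2 were called positive (28.6%, against 8.58% of all genes), TIE1 (0.639) and CDH5 (0.530), and 0 negative. The MEF2A values ran from -0.856 for TIE1 to 0.740 for EMCN, so markers of this cell type did not move together. Their mean lay between 8.39 (fetus 376) and 8.78 (fetus 311), and PECAM1 did not pass the filter. Of 4 measured smooth muscle and pericyte markers, 1 was called with MEF2A, RGS5 of pericytes (0.810, adjusted p = 3.89e-06 in limma), which was called negative with HDAC5 (-0.536) and HDAC9 (-0.564). The others, MYH11 (-0.413), TAGLN (-0.373) and ACTA2 (-0.297), had a negative r with MEF2A and were not called. MYH11 was called positive with HDAC5 (0.516), so markers of this list did not move together either. The list's mean lay between 9.69 (fetus 313) and 10.01 (fetus 327).

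Of 5 fibroblast markers 2 were called positive with MEF2A and 2 negative with HDAC9, at means from 11.996 in fetus 283 to 12.51 in fetus 320. Of 4 adipocyte markers 1 was called with HDAC9, FABP4 (0.464), which was also called with HDAC5 (0.514) and with MEF2A (-0.409), and the list's mean lay between 7.58 (fetus 320) and 8.11 (fetus 324). The leukocyte marker PTPRC did not pass the filter, and 2 of 6 macrophage and leukocyte markers were kept. Of 6 measured muscle fibre markers, TTN, which codes for titin, was called positive with MEF2A (r = 0.917) and DES negative (-0.592). The others, CKM (-0.552), TNNT1 (-0.357), TNNT3 (-0.307) and ACTA1 (-0.304), were negative too but not called. TTN was thus the only one with a positive r. The called shares were 16.7% in each direction, against 20.4% positive and 29.3% negative over all genes. The part of these cell types in the values of the members was not tested.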

How the data were processed

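Total RNA of longissimus dorsi muscle from 24 fetuses at 63 dpc was hybridized to 1 array each. The authors used Expression Console for RMA, and the deposited table gives every probe set a log2 signal in each fetus. The submitters' processing notes list GCOS 1.1.1. RMA equalizes the distribution of probe signals between arrays, which removes most differences in overall brightness. Medians over probe sets still lay between 6.61 and 6.73, and centring arrays on them changed some counts of called genes. The number of arrays limits the precision. The sources used here name no genome build for the array, and no coordinates or sequences are used here. The planned description of proteins and promoters was not run.

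The table held 47845 probe sets, 123 of them controls. The platform annotation, which can be old, gave 1 symbol to 26426 probe sets and several to 0, and the others were unnamed here. Symbols of 308 were updated through RefSeq synonyms (assembly Sscrofa11.1). Kept probe sets lay above the median of their array in at least 80% of arrays (20 of 24), and the one of highest median stood for its gene. No detection calls were used.

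No fetus has a weight group in the labels, so values are given as ranges, and the comparison by weight, sex and dam in the study's methods was not run. Spreads and correlations include any such differences. With limma 3.58.1 (R 4.3.3) every kept gene was regressed on 1 member at a time, with Benjamini-Hochberg adjustment over all genes and a threshold of 0.05. The script was tested on simulated data. Permutation p-values of Pearson's r and Spearman's rho used 100000 permutations in NumPy 2.4.6, with ranks from SciPy 1.17.1. Over fetuses, r was repeated without the 2 that lay farthest from the first gene's or the control's median.

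Named genes were all members, the 5 genes of highest and 3 of lowest r with each, and in each pathway list up to 3 at either end of r with MEF2A, besides known partners. List genes named for r with another member were chosen after their values were seen. The members and lists were chosen with earlier results of these data known. Alternatives were the mean of a gene's kept probe sets, arrays centred on their median, and no or a stricter filter (60th percentile). Others were the control signal or first component as covariate, ranks, no symbol update and each fetus left out.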

Additional observations from a re-analysis of the deposited data

How the results depend on the processing

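The pair MEF2A and HDAC9 kept its call with every fetus left out in turn (r from -0.678 to -0.518). It also kept it with the mean of a gene's kept probe sets, centred arrays, no filter and on ranks. HDAC9 had 1 kept probe set, so that mean left its reading unchanged and did not test the choice of HDAC9 probe set. With the control signal as covariate the pair lost the call (r = -0.38), and with the first component its r was 0.0669. HDAC9 did not pass the stricter filter, so its pairs could not be fitted there. The count of called pairs was 1, with 4 on the mean of probe sets, 3 on centred arrays, 0 under the stricter filter, 0 with the first component and 1 to 3 without 1 fetus (3 without 340). With the control signal it was again 1, but the pair was MEF2D and HDAC5 (r = 0.66). HDAC4 and HDAC5 were called on centred arrays (r = 0.75) and without fetus 297, 312 or 340, and their r stayed between 0.50 and 0.81 over the settings tried. Causes were not tested.

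Some r changed sign. With the first component as covariate r was 0.061 for MEF2A and MEF2D, 0.18 for MEF2A and HDAC5, 0.24 for MEF2A and HDAC7, -0.15 for MEF2D and HDAC9, -0.0179 for HDAC4 and HDAC9, -0.11 for HDAC5 and HDAC7, -0.084 for HDAC5 and HDAC9 and -0.33 for HDAC7 and HDAC9. With the control signal it was 0.16 for MEF2A and HDAC7, -0.0782 for HDAC5 and HDAC7 and -0.59 for HDAC7 and HDAC9. On centred arrays it was 0.0651 for MEF2D and HDAC7 and -0.0164 for HDAC7 and HDAC9, and on the mean of probe sets -0.18 for HDAC5 and HDAC7. Without 1 fetus r ran from -0.315 to 0.0623 for MEF2D and HDAC7, -0.0736 to 0.205 for HDAC5 and HDAC7 and -0.0846 to 0.164 for HDAC7 and HDAC9. No adjusted p was under 0.05 for any of these values after the change of sign.

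Counts of genes that followed a member moved for 6 of the 7 members. For MEF2D (402) they were 1198 with the control signal, 22 with the first component, 3752 on the mean of probe sets, 116 without the filter, 1970 on centred arrays, 0 on ranks and 0 to 860 without 1 fetus. For HDAC4 (7) they were 0 with either covariate, 4 on the mean of probe sets, 0 without the filter, 12 under the stricter filter, 1115 on centred arrays, 0 on ranks and 0 to 860 without 1 fetus. For HDAC7 (101) they were 0 with the control signal, 1787 on the mean of probe sets, 40 without the filter, 27 on centred arrays, 0 on ranks and 10 to 270 without 1 fetus. With the first component MEF2A fell from 4832 to 0 and HDAC5 from 3504 to 1848. HDAC9 (2349) had 0 with either covariate and 1482 to 3005 without 1 fetus. With controls of fewer than 13 G or C bases 1 member, MEF2A, was called in place of 3. Centring, ranks and leaving out 1 fetus for these counts were added after the data were seen. Dam was not used as a block, since the deposited labels do not give it. Dim signal limits what can be read of MEF2C, whose single probe set did not pass the filter. It limits HDAC9 less, which passed the filter but not the stricter one.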
